A study of Mus musculus with 128 samples.

Results

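The acute phase secreted proteins described here were 10 named genes of mouse liver: Saa1, Saa2, Orm1, Orm2, Hp, Hpx, Lcn2, Lrg1, Itih4 and Fgl1. They were chosen by name as rows of the deposited read count table, with earlier results of these data known. All 10 of them were found among its 40824 genes. Their reads were summed over the cells of each library of liver cells, and the libraries fell into 49 groups of 2 to 6.

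Acute phase proteins are made by hepatocytes and secreted into blood. Their genes are low in a resting liver and are switched on after injury, infection or surgery, chiefly by interleukin 6 through the transcription factor STAT3 and by interleukin 1 through NF-kB, with C/EBP factors acting at many of their promoters. Saa1 and Saa2 encode the serum amyloid A proteins, which travel on high density lipoprotein, and Orm1 and Orm2 encode the orosomucoids, carriers of drugs and lipids in plasma. Hp encodes haptoglobin, which binds free haemoglobin, and Hpx encodes hemopexin, which binds heme. Lcn2 encodes a lipocalin that withholds iron from bacteria by binding their siderophores. Lrg1 encodes leucine-rich alpha-2-glycoprotein, Itih4 encodes a heavy chain of the inter-alpha-trypsin inhibitor family, and Fgl1 encodes a fibrinogen-like protein secreted by hepatocytes. Lcn2, Hp and Lrg1 are also made by neutrophils, so summed levels of neutrophil markers are given with the results below. Saa1 and Saa2 are near-identical copies, as are Orm1, Orm2 and their neighbour Orm3, so how reads were divided within each family is uncertain.

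On the mouse build GRCm38.p6 the Saa pair lay side by side on chromosome 7, Saa1 at chr7:46740497-46743181 and Saa2 at chr7:46751833-46754313. The orosomucoid pair lay together on chromosome 4, Orm1 at chr4:63344556-63348163 and Orm2 at chr4:63362449-63365877. The other members lay apart, Hp at chr8:109575128-109579172, Hpx at chr7:105591611-105600116, Lcn2 at chr2:32384637-32387739, Lrg1 at chr17:56119678-56121946, Itih4 at chr14:30886476-30901986 and Fgl1 at chr8:41191434-41217978. RefSeq promoter sequences of this build were matched for 7 of the 10 members. The 250 bases before the annotated start as the RefSeq table gives it, which for Saa1 lies inside the gene span above, were searched on both strands for the C/EBP letters TTNNGNAA, the STAT letters TTCNNNGAA and the NF-kB letters GGGANNNNCC, and matches were allowed to overlap. The C/EBP letters were present in 5 of the 7 promoters and in 36.8% of all 32851 promoters of that length. The STAT letters were present in 1 of the 7, that of Itih4, and in 7.02% of all promoters. The NF-kB letters were present in none of the 7 and in 17.6% of all promoters. Saa1 and Saa2 carried the same C/EBP match, TTGCACAA, and Orm2 carried the palindrome TTGCGCAA. A match describes these letters and is not evidence of a bound site. The 5 promoters below are shown because they hold these matches in the members that rose furthest after surgery and in Itih4; they are given 5′ to 3′ on the gene's strand, with the matched letters in capitals.
Saa1, chr7:46742981-46743230, minus strand: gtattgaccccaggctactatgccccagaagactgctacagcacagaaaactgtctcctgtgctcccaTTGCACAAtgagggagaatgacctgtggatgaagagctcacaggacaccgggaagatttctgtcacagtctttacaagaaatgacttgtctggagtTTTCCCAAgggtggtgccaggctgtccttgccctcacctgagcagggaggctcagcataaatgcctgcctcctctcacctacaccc
Saa2, chr7:46751583-46751832, plus strand: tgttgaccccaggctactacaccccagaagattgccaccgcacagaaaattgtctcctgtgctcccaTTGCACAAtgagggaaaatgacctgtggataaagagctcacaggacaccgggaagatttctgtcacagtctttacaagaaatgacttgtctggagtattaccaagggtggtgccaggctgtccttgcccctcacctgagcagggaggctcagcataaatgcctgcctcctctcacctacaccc
Orm2, chr4:63362199-63362448, plus strand: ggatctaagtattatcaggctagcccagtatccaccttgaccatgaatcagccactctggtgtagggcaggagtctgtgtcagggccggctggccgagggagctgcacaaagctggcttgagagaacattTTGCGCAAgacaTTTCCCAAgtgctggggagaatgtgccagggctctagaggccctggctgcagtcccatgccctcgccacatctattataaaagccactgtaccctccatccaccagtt
Lcn2, chr2:32387740-32387989, minus strand: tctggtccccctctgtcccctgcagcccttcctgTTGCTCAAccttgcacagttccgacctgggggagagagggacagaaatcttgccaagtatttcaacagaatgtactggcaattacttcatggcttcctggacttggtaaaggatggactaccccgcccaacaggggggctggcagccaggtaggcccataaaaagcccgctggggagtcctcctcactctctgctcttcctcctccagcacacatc
Itih4, chr14:30886226-30886475, plus strand: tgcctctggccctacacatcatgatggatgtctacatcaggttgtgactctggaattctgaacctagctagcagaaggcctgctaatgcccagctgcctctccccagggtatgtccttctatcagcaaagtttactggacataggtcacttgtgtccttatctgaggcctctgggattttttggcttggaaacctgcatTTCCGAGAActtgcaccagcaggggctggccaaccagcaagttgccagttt

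The wild-type series came from B6C3F1 mice, the cross labelled C57BL/6XC3H, with 18 libraries from embryonic (E) days E11.5 to E19.5, whose cells were labelled hepatoblasts up to E14.5 and hepatocytes later. The knockout series, 44 libraries, came from C57BL/6 mice. Its controls, labelled Pard3WT, YapWT or Pard3WT YapWT, all carried the Foxa3-Cre transgene, with no floxed allele in the label. Its knockouts, labelled HMKO, carried Foxa3-Cre with Pard3-fl/fl, with Yap-fl/fl or with both, and a further pair of groups used the Alfp-Cre transgene in the control and Alfp-Cre;Pard3-fl/fl in the knockout. Pard3 encodes the polarity protein PAR3 and Yap1 the co-activator at the end of the Hippo pathway. A culture series of 26 libraries held E15.5 cells of these Foxa3-Cre genotypes kept for 2 days with no compound or with PD, TPPB, U0126 (a MEK inhibitor) or TPPB and PD together; the labels used here state no dose. The surgery series, 18 libraries from postnatal day 60 (P60), covered day 0, day 2 and day 7 of partial hepatectomy (removal of part of the liver), and all its mice were Pard3-fl/fl. Its Pard3HMKO groups were labelled as injected for 7 days with AAV-Tbg-Cre, a virus that expresses Cre in hepatocytes, and its Pard3WT groups as control, so deletion and injection cannot be told apart there. Open chromatin (ATAC-seq) peak lists came from 22 further libraries. The labels do not say that the libraries of a group came from separate animals, so p-values measure the spread between libraries, and the sources used here do not give how these liver cells were sorted.

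The RNA libraries held 7 to 133 cells and 4506130 to 86188713 reads each. The deleted part of Pard3 could not be checked, because its reads were counted over the whole gene; no Pard3 change was called. Yap1 was called lower in the libraries labelled YapHMKO at E15.5 (0.161 and 3.69 CPM, reads scaled to a common library size, against 55.4 and 74) and in culture (1.29 and 7.56 against 185 and 173). It was not lower in those labelled YapHMKO at E17.5 (44.9 and 44.4 against 26.3 and 29.8, adjusted p = 0.404 by edgeR's quasi-likelihood test) or Pard3HMKO YapHMKO at E17.5 (37.3 and 38.6 against 24.3 and 28.0, adjusted p = 0.540), so those groups are named by their labels. A hepatocyte marker list took 449842 and 495438 CPM in E17.5 Pard3WT livers and 240734 and 184240 CPM in E17.5 Pard3HMKO livers; its values in other groups stand beside the results. Levels below are CPM after TMM scaling within each series of libraries, so a cultured library has other values beside liver than beside other cultures. Scaling by library totals alone moved the median of all genes by −0.66 to 1.10 log2 units between groups. Under that scaling no called member change turned direction, and each call it lost is named below. Where libraries of a group are said below to lie wholly above or below another group, the share of all genes that did so was not counted.

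In wild-type embryos, 6 of the 7 members with enough reads to test had a called positive slope with age. Calls were made at an adjusted p below 0.05 by edgeR's quasi-likelihood test, in which 35.6% of all genes were called. Saa1, 1 of the 6, had nearly all its reads at E17.5 and was not high at E19.5. Hp had 2.60 and 3.42 CPM at E11.5, 3.27 and 2.34 at E12.5, 29.7 and 10.7 at E13.5, 98.0 and 52.0 at E14.5, and 78.9, 68.6 and 70.5 at E15.5. It then had 598, 461 and 292 CPM at E16.5, 1132 and 1078 at E17.5, and 2799 and 3648 at E19.5. The E16.5 libraries of Hp lay above every earlier library, and the E19.5 libraries above all others. Its fitted slope was 1.38 log2 units per day (SE 0.08, adjusted p = 9.89e-11).

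Hpx, the heme binder, already had 355 and 339 CPM at E11.5 and had 1681 and 2036 at E19.5. Its slope was 0.27 per day (SE 0.03, adjusted p = 5.05e-07), and over E13.5 to E17.5 alone it was 0.12 and no longer called (adjusted p = 0.0993). Itih4 went from 24.1 and 23.3 CPM at E11.5 to 157, 173 and 210 at E15.5 and 924 and 949 at E19.5, a slope of 0.70 (SE 0.04, adjusted p = 1.02e-10). Fgl1 and Lrg1 came on late. Fgl1 stayed at or below 4.71 CPM up to E15.5, then had 20.3, 82.1 and 23.6 CPM at E16.5, 240 and 273 at E17.5 and 510 and 469 at E19.5 (slope 1.55, SE 0.19, adjusted p = 2.35e-06). Before E15.5 the only read of Lrg1 was 1 in an E11.5 library (0.0219 CPM), and at E15.5 1 of 3 libraries had 0.389 CPM. Lrg1 reached 9.22, 9.12 and 2.60 CPM at E16.5 and 56.3 and 76.7 at E19.5 (slope 2.02, SE 0.18, adjusted p = 1.67e-08).

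Lcn2 had no called trend (slope 0.01) and lay between 0 and 23.1 CPM, with the ages overlapping. Saa1 was called (slope 1.36, SE 0.28, adjusted p = 0.000670) on few reads, with 1.10 and 1.65 CPM at E17.5 and 0 and 0.0367 at E19.5. No earlier library had a read of Saa1. Its slope thus rests on the E17.5 libraries that also brought it past the filter on low counts, and does not show a steady rise. Orm1 did not exceed 0.550 CPM in any library, and it, Saa2 and Orm2 had too few reads to be tested. All 6 calls were kept when each library was left out in turn. The Foxa3-Cre Pard3WT controls, scaled in another series and not tested between these ages, did not all rise from E17.5 to E19.5. Hpx went from 1745 and 1870 CPM to 1122 and 1172 there, and Fgl1 from 874 and 1224 to 598 and 610. Lrg1 went from 10.6 and 12.6 to 8.29 and 9.70, while Hp and Itih4 were higher at E19.5. The neutrophil list stood at 121 and 119 CPM at E19.5 and at or below 30.6 at every earlier age, and its part in the results was not tested. Of 37 other acute phase genes tested, 32 rose and 0 fell (median slope 0.49, against −0.01 over all genes); Pzp, a protease inhibitor of the alpha-2-macroglobulin family, rose by 0.65 and Itih3 by 0.51 per day. Of 11 genes that are known to fall in the acute phase, 9 rose and 1 fell; Ahsg, which encodes fetuin-A, rose by 1.03 per day.

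**Figure D1:**
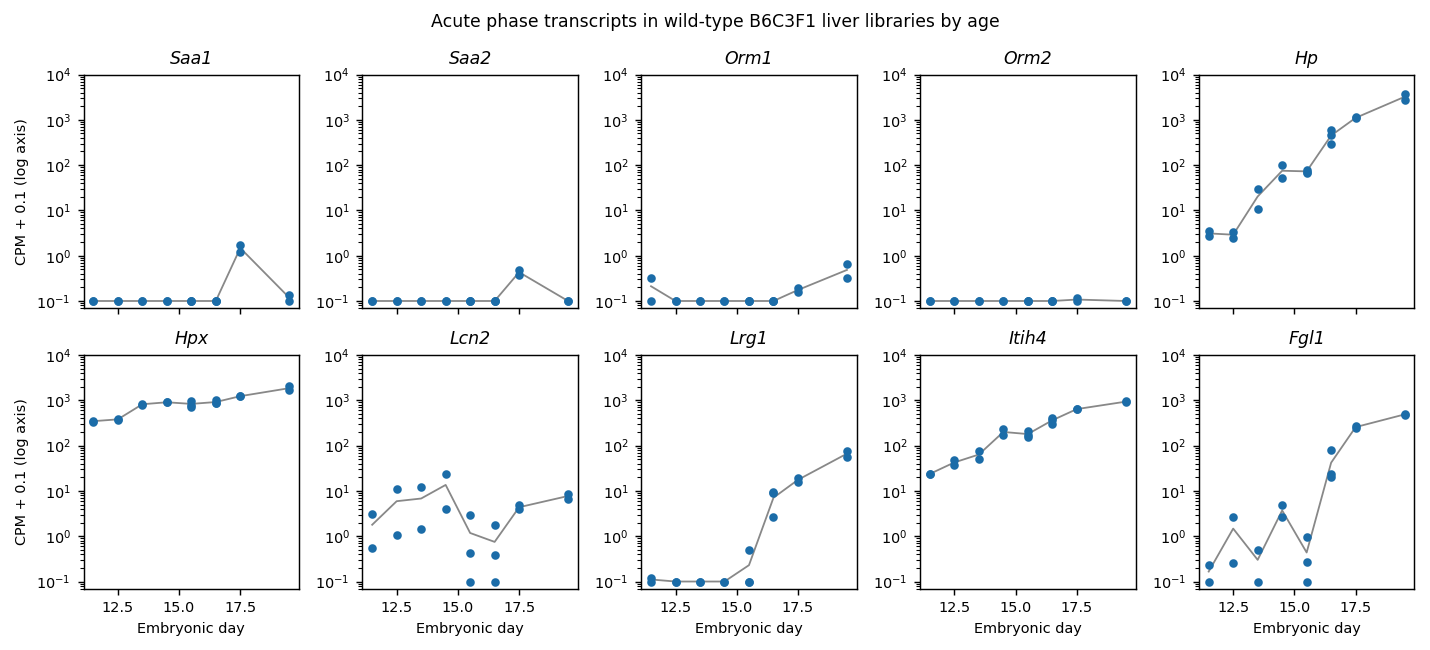
Levels of the 10 members (CPM, TMM scaled, log axis) against embryonic age in wild-type B6C3F1 liver; each point is 1 library and lines join the group means. Hp, Itih4, Hpx, Fgl1 and Lrg1 end far above their start, at 2799 and 3648 CPM for Hp, while the Saa and Orm genes stay near 0.

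The Foxa3-Cre Pard3 knockout was compared with its control at 7 ages. None of the 10 members was called at E11.5 (0.0754% of all genes called), E13.5 (0.00%) or E15.5 (0.237%). At an unadjusted p below 0.05 the edgeR counts were 0, 0 and 1 members (Fgl1 at E15.5), and DESeq2 called 0 at each age.

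At E17.5, 4 of 10 members fell, with 14.9% of all genes called. Fgl1 had 874 and 1224 CPM in Pard3WT and 152 and 114 in Pard3HMKO, a log2 fold change of −2.98 (SE 0.42, adjusted p = 1.90e-05 by edgeR, as are all adjusted p-values below). Hp had 971 and 718 against 284 and 170 CPM (−1.89, SE 0.40, adjusted p = 0.00154). Both genes had knockout libraries well below both controls. Hpx fell by 1.14 on the log2 scale, from 1745 and 1870 to 880 and 756 CPM, and Itih4 by 1.17, from 555 and 546 to 260 and 227. Lrg1 had 10.6 and 12.6 CPM against 7.23 and 4.05 and was not called. The call of Hp was lost without Pard3HMKO replicate 2 (−1.58, adjusted p = 0.0562). The groups' hepatocyte marker levels, given above, moved the same way, and the neutrophil list stood at 180 and 103 CPM in control and 130 and 167 in knockout; the part of either in the result was not tested.

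At E19.5, 4 members fell again, with 6.95% of all genes called. Fgl1 had 598 and 610 CPM in control and 13.6 and 21.4 in knockout (−5.11, SE 0.47, adjusted p = 8.98e-08), and Lrg1 had 8.29 and 9.70 against 1.24 and 1.10 (−2.94, SE 0.43, adjusted p = 5.27e-05). Hp had 1531 and 1364 against 531 and 505 CPM (−1.48, SE 0.39, adjusted p = 0.0199) and Itih4 864 and 921 against 611 and 576 (−0.59, SE 0.14, adjusted p = 0.00547). For these last genes the groups did not overlap, but the calls were fragile. Hp was lost without any 1 of the 4 libraries (adjusted p = 0.0606 to 0.161). Itih4 was lost without Pard3HMKO replicate 2 (adjusted p = 0.0874), without Pard3WT replicate 2 (0.0642) and under library totals (−0.33, adjusted p = 0.129). The hepatocyte marker list stood at 323641 and 324247 CPM in control and 264390 and 273640 in knockout, and the neutrophil list at 202 and 118 against 108 and 79.8.

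At birth (P0) the difference was widest: 7 of 10 members fell, with 21.8% of all genes called. Hp had 7624 and 7933 CPM in control and 71.0 and 72.7 in knockout, a log2 fold change of −6.76 (SE 0.49, adjusted p = 2.16e-10). Lrg1 had 180 and 158 against 0.862 and 0.591 CPM (−7.82, SE 0.52, adjusted p = 6.92e-12), and Fgl1 had 1741 and 1617 against 11 and 4.89 (−7.70, SE 0.54, adjusted p = 8.10e-11). For these secreted products of the newborn hepatocyte, both knockout libraries lay far below both controls. Hpx had 2817 and 2724 against 727 and 798 CPM (−1.86, SE 0.12, adjusted p = 4.82e-12), and Itih4 1071 and 1050 against 301 and 360 (−1.68, SE 0.14, adjusted p = 2.67e-11). Lcn2 and Orm1 were also called, on less stable ground.

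Lcn2 had 135 and 90.8 CPM at P0 in control and 25.0 and 9.83 in knockout (−2.69, SE 0.88, adjusted p = 0.0308), a call lost without any 1 of the 4 libraries (adjusted p = 0.0530 to 0.248) and under library totals (−2.21, adjusted p = 0.0703). Orm1 had 5.22 and 2.72 against 0.411 and 0.430 CPM (−3.23, SE 0.91, adjusted p = 0.0139), lost without Pard3HMKO replicate 1 (0.116) or 2 (0.0908) or Pard3WT replicate 1 (0.109). The other orosomucoid, Orm2, had 2 reads in each genotype. The hepatocyte list stood at 225887 and 240748 CPM in control and 163885 and 188381 in knockout, while the neutrophil list stood at 1673 and 25.4 CPM in control and 142 and 90.4 in knockout. In the control library with 1673 CPM, 13 of the 14 neutrophil genes had a read, and in the other 12 did. The macrophage list, whose Cd14 is also counted among the other acute phase genes, stood at 56.0 and 274 CPM against 17.0 and 15.0. The part of these cells in the results was not tested.

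From E19.5 to P0 the control and the knockout moved differently. In Pard3WT 5 members rose, with 14.4% of all genes called: Hp by 2.43 on the log2 scale, Hpx by 1.27, Lrg1 by 4.23, Lcn2 by 3.50 and Fgl1 by 1.47. In Pard3HMKO none rose and 2 fell, with 4.18% of all genes called, Hp by 2.85 (SE 0.42, adjusted p = 0.000119) and Itih4 by 0.85 (SE 0.14, adjusted p = 0.000138). The test of the difference between the steps (knockout minus control; 10.2% of all genes called) was passed by 5 members. The differences were −5.28 for Hp (adjusted p = 5.73e-07), −4.89 for Lrg1 (8.49e-06), −2.58 for Fgl1 (0.00493), −1.67 for Hpx (6.30e-08) and −1.09 for Itih4 (0.000135), and all 5 were kept without each library in turn. In the control step, Lcn2 and Fgl1 were lost without E19.5 Pard3WT replicate 1 (adjusted p = 0.0741 and 0.103), without its replicate 2 (0.121 and 0.0879) or without P0 Pard3WT replicate 1 (0.0550 and 0.0720).

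By P14 the direction had turned: 5 members were higher in Pard3HMKO than in Pard3WT and none was called lower, with 16.7% of all genes called. Hpx had 3393 and 3175 CPM in control and 9383 and 10508 in knockout (1.60, SE 0.12, adjusted p = 1.56e-10). Lrg1 had 160 and 158 against 404 and 454 (1.44, SE 0.35, adjusted p = 0.00458), and Orm1 65.7 and 60.9 against 495 and 360 (2.76, SE 0.64, adjusted p = 0.00440). For these 3 genes every knockout library lay above every control library. Saa2 had 0.976 and 0.434 against 120 and 16.2 CPM (6.58, SE 1.53, adjusted p = 0.00470), and Fgl1 883 and 877 against 2419 and 2335 (1.43, SE 0.40, adjusted p = 0.0131). Not called were Itih4 (1261 and 1242 against 1490 and 1435 CPM), Saa1 (62.6 and 15.4 against 407 and 467) and Lcn2 (118 and 90.9 against 499 and 624). Orm2 (16.8 and 8.81 against 40.7 and 60.7) and Hp (3616 and 3459 against 7127 and 6791) were not called either. For these 5 the groups did not overlap, but the share of all genes without overlap was not counted, so no difference is read from it.

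Only the P14 call of Hpx was kept without each library in turn. Saa2 was lost without Pard3HMKO replicate 1 (adjusted p = 0.194) or Pard3WT replicate 1 (0.0505) or 2 (0.0865), Orm1 without the same 3 libraries (0.0739, 0.0516 and 0.0626), Lrg1 without Pard3WT replicate 1 (0.0505) or 2 (0.0570), and Fgl1 without any 1 of the 4 (0.0533 to 0.0973). DESeq2 gave Orm1 an adjusted p of 0.0670. At P14 the hepatocyte list stood at 172421 and 162327 CPM in control and 183328 and 196698 in knockout, and the neutrophil list at 504 and 48.2 against 213 and 386.

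From P0 to P14 the control rose in 3 members and fell in 1, with 19.4% of all genes called. Orm1 rose by 3.99 on the log2 scale and Orm2 had 2 reads at P0 and 595 at P14, a ratio of 438 (counting interval 121 to 3613). Saa1 rose by 4.56 (adjusted p = 0.0352; lost without P0 Pard3WT replicate 2, 0.130, without P14 Pard3WT replicate 1, 0.202, and by DESeq2, 0.284). Hp fell by 1.14 (adjusted p = 0.0405; lost without any 1 of the 4 libraries, 0.118 to 0.190, with DESeq2's size factors, 0.0508, and under library totals, −0.89, 0.119). In Pard3HMKO all 10 members rose, with 24.7% of all genes called. Their fitted log2 fold changes ran from 2.15 for Itih4 to 10.01 for Orm2, Hp rose by 6.60 and Lrg1 by 9.17, and Orm2 had 2 reads at P0 and 2203 at P14, a ratio of 1090 (302 to 9000). The call of Saa2 was lost without P14 Pard3HMKO replicate 1 (6.14, adjusted p = 0.0580).

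**Figure D2:**
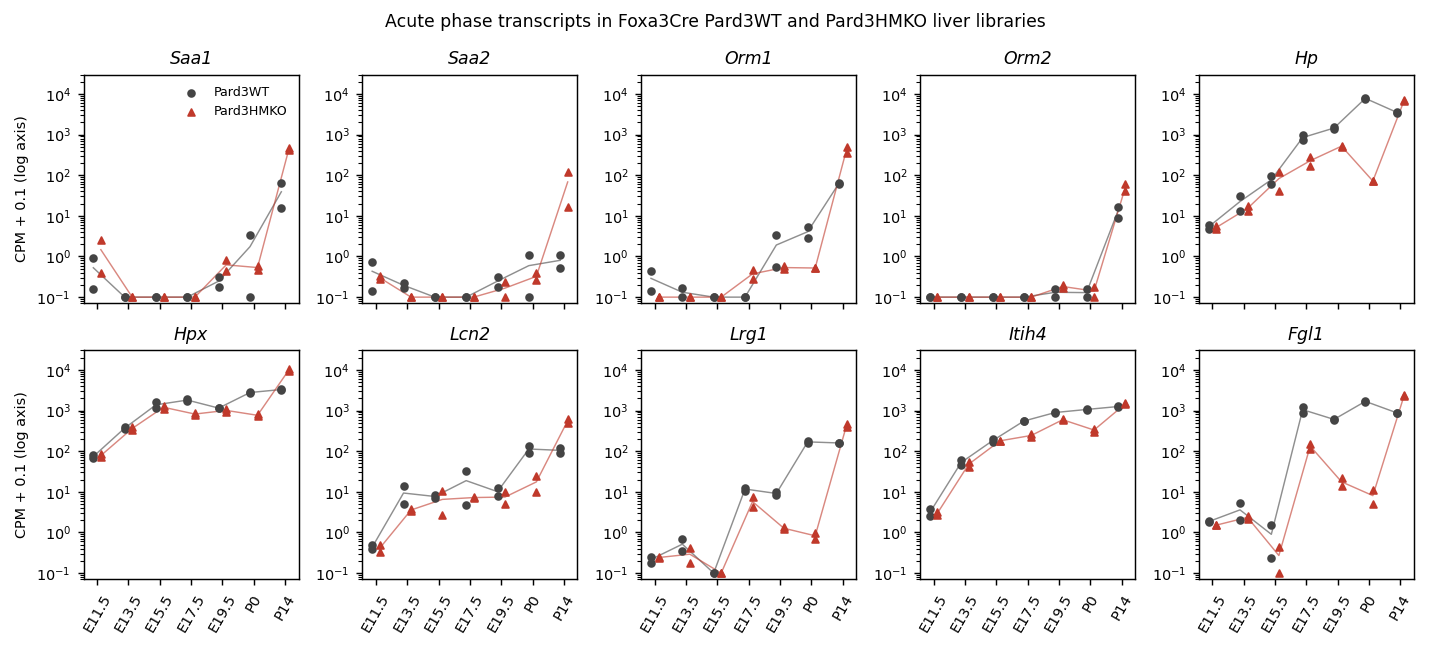
Levels of the 10 members (CPM, TMM scaled, log axis) in Foxa3-Cre Pard3WT and Pard3HMKO liver from E11.5 to P14; each point is 1 library and lines join the group means. At P0 the knockout points of Hp sit at 71.0 and 72.7 CPM, far under 7624 and 7933 in control, and at P14 at 7127 and 6791, above 3616 and 3459.

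Across single cells, the P0 gap of Lrg1 lay at least partly in the number of cells with a read. A read of Lrg1 was found in 116 of 118 P0 control cells and in 11 of 55 knockout cells; at a fixed depth of 100000 reads a cell the shares per library were 91.7% to 94.8% in control and 3.33% to 8% in knockout. Hp was still read in 54 of 55 knockout cells, so its gap did not lie in the number of cells with any read. At P14, by contrast, Saa1 was unevenly spread: 38 of 113 control cells and 48 of 59 knockout cells had a read, and the control cells richest in Saa1, 1 in 10 of a library, held 95.6% to 96.0% of its reads. Cells of a library are not replicates, so these shares carry no test, and 66 cells below the fixed depth were left out of the thinned shares.

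Other knockouts at E17.5 were each compared with their own control libraries. With Alfp-Cre, 5 members fell (5.28% of all genes called). Hp had 1191 and 1688 CPM in control and 296 and 340 in knockout (−2.18, SE 0.40, adjusted p = 0.00105), Lrg1 15.4 and 29.7 against 1.54 and 0.822 (−4.26, SE 0.43, adjusted p = 3.17e-07), and Fgl1 250 and 286 against 24.6 and 22.4 (−3.51, SE 0.44, adjusted p = 9.41e-06). Itih4 fell by 0.91 (954 and 952 to 489 and 526 CPM) and Hpx by 0.62 (1192 and 1318 to 798 and 833). The change of Lrg1 was larger with Alfp-Cre than with Foxa3-Cre, by −3.22 (SE 0.58, adjusted p = 0.00187; 2.91% of all genes differed), and it was the 1 member that passed that test.

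In the libraries labelled YapHMKO, 0 members were called at E15.5 (0.302% of all genes called; 2 fell under 0.05 before adjustment, and DESeq2 called 1, Lrg1). At E17.5, 5 fell (14.4% of all genes called): Fgl1 by 3.02 (1129 and 1101 to 171 and 104 CPM), Lrg1 by 2.73 (26.3 and 23.3 to 5.71 and 1.94), Hp by 2.41 (1406 and 1612 to 370 and 198), Itih4 by 1.24 (679 and 693 to 334 and 245) and Hpx by 0.76 (1835 and 1883 to 1215 and 988). In those labelled Pard3HMKO YapHMKO, 5 members fell (14.6% of all genes called): Fgl1 by 3.35 (949 and 1076 to 123 and 74.8), Hp by 2.46 (1370 and 1185 to 245 and 219), Lrg1 by 2.1 (18.5 and 22.3 to 5.40 and 4.11), Itih4 by 1.26 (584 and 605 to 266 and 231) and Hpx by 0.94 (1736 and 1854 to 933 and 933). Yap1 itself was not lower in either of these 2 groups, as given above. Hpx lost its call under library totals in all 3 of these comparisons, with −0.26 (adjusted p = 0.206) for Alfp-Cre, −0.09 (0.688) for YapHMKO and −0.25 (0.169) for Pard3HMKO YapHMKO. The hepatocyte list stood at 304337 and 343345 against 199749 and 209075 CPM with Alfp-Cre, at 454277 and 451602 against 239682 and 222448 in YapHMKO, and at 426730 and 437188 against 212666 and 187912 in Pard3HMKO YapHMKO. The neutrophil list stood at 192 and 179 against 32.1 and 87.8 CPM with Alfp-Cre, at 293 and 306 against 371 and 386 in YapHMKO, and at 175 and 141 against 204 and 230 in Pard3HMKO YapHMKO. The part of these lists in the results was not tested, and fewer cells of a type and less RNA per cell cannot be told apart in summed libraries.

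The knockout calls were also made without the cells in which 50% or more of another cell type's marker genes had a read, which removed 47.2% of all cells. This left few cells in some groups: 50 of 55 were removed in P0 Pard3HMKO, 57 of 59 in P14 Pard3HMKO and 59 of 63 in E17.5 YapHMKO. Across the RNA libraries, 5 kept no cell. At E17.5 with Foxa3-Cre, Hp (adjusted p = 0.0890) and Itih4 (0.0854) were no longer called, and at E19.5 Hp (0.438), Lrg1 (0.0570) and Itih4 (0.752) were not. At P0, Orm1 (2.47, 0.486) and Lcn2 (−1.60, 0.440) were lost, and at P14 Orm1 (1.43, 0.610), Lrg1 (1.49, 0.159) and Fgl1 (1.08, 0.0743). With Alfp-Cre, Hp (−1.69, 0.256), Hpx (−0.45, 0.782) and Itih4 (−0.77, 0.733) were lost, in YapHMKO Hpx (−0.40, 0.247) and Itih4 (−0.92, 0.0885), and in Pard3HMKO YapHMKO Lrg1 (−1.92, 0.133) and Itih4 (−1.06, 0.0647). Lcn2 was lost in the control step at birth (2.53, 0.0751), and Itih4 in the knockout step (−1.19, 0.226) and in the difference of the steps (−1.33, 0.203). From P0 to P14, Saa1 (8.13, 0.233), Orm2 (9.39, 0.182) and Hp (−0.95, 0.268) were lost in control, and Saa1 (0.00) and Orm2 (7.75, 0.500) in knockout.

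The wider acute phase list was counted in the same comparisons. Of 37 other acute phase genes, 26 fell and 0 rose in the Foxa3-Cre Pard3 knockout at E17.5 (median −1.08; Ambp −0.96, Serpina1a −1.05), 16 fell and 3 rose at E19.5, and 25 fell and 4 rose at P0 (median −1.61; the complement protein C3 −1.78, serum amyloid P, Apcs, −4.54). At P14, 19 rose and 7 fell, with C3 at 1.49 and A2m at 3.13. The genes known to fall in the acute phase did not mirror them: of 11, 7 fell and 1 rose at E17.5 (Alb −1.29, Ttr −1.14), and 9 fell and 1 rose at P0, where Serpina6, the corticosteroid carrier, rose by 7.06. Of 32 receptor and signalling genes of the response, 5 rose and 3 fell at E17.5, with 14.9% of all genes called, and 7 fell and 0 rose at P0, a share near the 21.8% of all genes called. At P0 Il6st, the shared receptor chain of the interleukin 6 family, fell by 2.28 and Il1rap, the accessory chain of the interleukin 1 receptor, by 4.29. Of 7 tested partners of the members, such as scavenger receptors, 2 fell at P0, the lipoprotein receptor Scarb1 by 1.08 and the heme-degrading enzyme Hmox1 by 2.68.

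In culture, the members were compared first with E15.5 liver of the same genotype. After 2 days without compound, 5 members were called in Pard3WT (27.4% of all genes) and 8 in YapWT (27.3%). Lcn2 had 10.7 and 12.4 CPM in Pard3WT liver and 771 and 628 in culture (5.92, adjusted p = 5.89e-06), and 16.4 and 15.1 against 1643 and 853 in YapWT (6.31, adjusted p = 8.63e-06). Hp had 144 and 92.6 against 1462 and 1550 CPM in Pard3WT (3.67, adjusted p = 4.85e-05) and 261 and 219 against 4090 and 2137 in YapWT (3.70, adjusted p = 6.11e-05). Both genes had every cultured library above every liver library, a split that was not counted over all genes. Fgl1 rose by 6.60 (2.26 and 0.209 to 152 and 111 CPM) and by 6.62 (3.87 and 2.5 to 486 and 144). Lrg1 had no read in Pard3WT liver and 27.6 and 25.1 CPM in culture, at least 153-fold higher against a floor of 3 reads per library, and rose by 6.71 in YapWT.

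The Saa and Orm genes differed between the cultured controls. In YapWT culture Saa1 had 21.2 and 15.1 CPM where liver had no read, at least 225-fold higher against the same floor, Saa2 rose with a ratio of 2188 (counting interval 393 to 86423), and Orm1 rose by 7.50, from 0.500 and 0.0961 to 92.5 and 23.1 CPM. With each cell scaled to one total, Orm1 was not called (4.49, adjusted p = 0.0673). In Pard3WT culture neither Saa gene had a read. Itih4 fell in both, by 1.05 in Pard3WT (255 and 296 to 156 and 110 CPM, adjusted p = 0.0274) and by 1.21 in YapWT (581 and 609 to 344 and 169). Under library totals Itih4 was not called in either (−0.06, adjusted p = 0.874, and −0.57, 0.116). It was also lost in Pard3WT without liver replicate 1 (0.0641), liver replicate 2 (0.121) or culture replicate 2 (0.138), and in YapWT without liver replicate 1 (0.0501) or 2 (0.0602). The neutrophil list stood at 448 and 2305 CPM in the YapWT culture control and at most at 88.2 in the other cultured groups. In that control, when scaled over all RNA libraries, a scale that differs from that of the list, S100a9 had a mean of 168 CPM. On that scale Mpo and Elane were at 0. The other genes of the list are not given here, so these values do not show which genes carried its sum. The part of neutrophils in the result was not tested.

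PD lowered Fgl1 and Lrg1 in cultured controls of both lines. In Pard3WT, 3 members were called (14.8% of all genes). Fgl1 had 192 and 142 CPM without compound and 3.18 and 5.25 with PD (−5.31, SE 0.93, adjusted p = 0.00121), Lrg1 34.9 and 32.0 against 8.01 and 15.4 (−1.51, SE 0.50, adjusted p = 0.0455), and Itih4 198 and 140 against 369 and 362 (1.11, SE 0.32, adjusted p = 0.0238). Lrg1 was lost without any 1 of the 4 libraries (0.0535 to 0.347). Itih4 was lost without control replicate 2 (0.235), PD replicate 1 (0.114) or PD replicate 2 (0.0933) and under library totals (0.82, 0.0662).

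In YapWT, PD changed 4 members (17.51% of all genes called). Fgl1 had 627 and 180 against 32.5 and 27.5 CPM (−3.75, adjusted p = 0.00566), Lrg1 112 and 146 against 20.4 and 31.0 (−2.33, 0.00230), Hp 5279 and 2679 against 8812 and 6866 (0.98, 0.0198) and Hpx changed by −0.51 (0.0278). Each of these was lost without some library: Fgl1 without PD replicate 1 (0.0595) or 2 (0.0658), Lrg1 without PD replicate 1 (0.0502), Hp without control replicate 2 (0.223) or PD replicate 1 (0.158), and Hpx without control replicate 1 (−0.08, 0.801) or PD replicate 1 (0.0911) or 2 (0.175).

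U0126 in Pard3WT changed 3 members (13.1% of all genes called). Fgl1 had 5.61 and 12.0 CPM (−4.26, SE 0.86, adjusted p = 0.00385) and Lrg1 4.29 and 9.24 (−2.32, SE 0.52, adjusted p = 0.00370), both below control. Orm1 had 0.268 and 0.653 CPM without compound and 1.32 and 46.0 with U0126 (5.72, SE 1.66, adjusted p = 0.0331), which rested on 1 library: without U0126 replicate 2 it was 1.57 (0.650), and it was lost too without control replicate 1 (0.232) or 2 (0.169). Fgl1 (0.0806) and Lrg1 (0.0947) were lost without U0126 replicate 1. PD and U0126 compared with each other gave 0 called members and 0.00% of all genes; Orm1 alone fell under 0.05 before adjustment, and DESeq2 made no member call (0).

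TPPB lowered the scavengers Hp and Hpx together with Itih4 and Fgl1. In Pard3WT, 4 members fell (6.78% of all genes called). Itih4 had 198 and 140 CPM without compound and 19.7 and 14.6 with TPPB (−3.31, SE 0.35, adjusted p = 2.99e-06), and Hpx 1766 and 1598 against 545 and 528 (−1.65, SE 0.16, adjusted p = 4.24e-07). Hp had 1851 and 1972 against 716 and 559 (−1.58, SE 0.27, adjusted p = 0.00146) and Fgl1 192 and 142 against 12.6 and 9.13 (−3.94, SE 0.84, adjusted p = 0.00882). In YapWT, 5 fell (10.4% of all genes called): Itih4 by 3.43 (445 and 212 to 31.4 and 29.7), Fgl1 by 3.41 (627 and 180 to 43.9 and 32.0), Lrg1 by 2.60 (112 and 146 to 32.8 and 9.60), Hp by 1.80 (5279 and 2679 to 1331 and 962) and Hpx by 1.32. Lcn2 stayed high, at 1906 and 1294 CPM in Pard3WT with TPPB against 976 and 798 without, and was not called. Saa1 had 219 and 0.847 CPM with TPPB where the control had no read; its 2 replicates lay far apart, and it was not called.

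The TPPB call of Fgl1 was lost in Pard3WT without TPPB replicate 1 (0.0849) or 2 (0.128) and in YapWT without control replicate 1 (0.157) or TPPB replicate 1 (0.0965) or 2 (0.149). TPPB libraries also had fewer hepatocyte marker reads, 6905 and 6238 CPM against 42955 and 38331 in the Pard3WT control and 9751 and 8931 against 76192 and 38952 in YapWT. Their macrophage lists, which include Cd14, were higher, 805 and 629 against 353 and 236 CPM in Pard3WT. The part of these in the results was not tested.

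PD given with TPPB was set against each compound alone in Pard3WT. Against control, Itih4 was higher (398 and 377 CPM; 1.20, adjusted p = 0.0172) and Fgl1 lower (3.75 and 8.81; −4.70, 0.00250), with 12.7% of all genes called. Against TPPB alone, Itih4 was higher by 4.50, Hp by 2.03 and Hpx by 1.74 (26.1% of all genes called). Against PD alone, 0 members and 0.00% of all genes were called; before adjustment 3 members fell under 0.05, and DESeq2 made 0 calls among them. The Itih4 call against control was lost without control replicate 2 (0.198) or TPPB PD replicate 1 (0.0932) or 2 (0.0708). PD alone exceeded TPPB alone by 4.42 in Itih4, 2.1 in Hp and 1.39 in Hpx (27.8% of all genes called). U0126 alone exceeded TPPB alone by 4.22 in Itih4, 1.60 in Hp and 1.20 in Hpx and was lower by −1.04 in Lcn2 (26.3% of all genes called), the last lost without TPPB replicate 1 (0.165) or U0126 replicate 1 (0.120) or 2 (0.0593). These comparisons share libraries and are not independent of each other.

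Knockout cells cultured without compound were then compared with cultured controls. In Pard3HMKO, 4 members fell and 1 rose (4.90% of all genes called). Itih4 had 198 and 140 CPM in control and 27.2 and 38.3 in knockout (−2.37, adjusted p = 0.000224), Hpx 1766 and 1598 against 979 and 875 (−0.86, 0.00177), Lrg1 34.9 and 32.0 against 5.76 and 6.37 (−2.46, 0.00525) and Fgl1 192 and 142 against 9.48 and 32.4 (−2.99, 0.0458). Lcn2, the siderophore binder, was higher at 2166 and 2101 against 976 and 798 (1.27, 0.0174). In YapHMKO, 4 fell (9.17% of all genes called): Itih4 by 3.18 (445 and 212 to 22.5 and 50.2 CPM), Lrg1 by 2.69 (112 and 146 to 15.4 and 24.5), Hp by 1.63 (5279 and 2679 to 1167 and 1408) and Hpx by 1.59 (2810 and 1658 to 716 and 767).

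In Pard3HMKO culture, Lcn2 and Fgl1 were lost without any 1 of the 4 libraries (0.0854 to 0.153 and 0.0874 to 0.302), and Lrg1 without Pard3HMKO replicate 1 (0.0641) or 2 (0.0662). The hepatocyte list stood at 12728 and 11547 CPM in cultured Pard3HMKO against 42955 and 38331, and at 11811 and 13416 in cultured YapHMKO against 76192 and 38952. The macrophage list, whose Cd14 is also counted among the other acute phase genes, stood at 1216 and 1526 CPM in cultured YapHMKO. When scaled over all RNA libraries, a scale that differs from that of the list, Cd14 had a mean of 771 CPM there, while Marco, C1qa and Vsig4 were at 0. The part of these in the results was not tested.

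In knockout cells PD and U0126 raised Itih4 and Hpx. In cultured Pard3HMKO, PD raised Itih4 from 27.2 and 38.3 to 244 and 310 CPM (3.08, adjusted p = 3.37e-06), Lrg1 from 5.76 and 6.37 to 35.1 and 20.2 (2.19, 0.00474) and Hpx by 0.58 (0.0148), and lowered Lcn2 from 2166 and 2101 to 1117 and 992 (−1.02, 0.0254), with 14.52% of all genes called. U0126 raised Itih4 to 275 and 308 CPM (3.15, 1.76e-06) and Hpx by 0.83 (0.000661) and lowered Lcn2 by 0.93 (0.0340), with 17.8% of all genes called. In cultured YapHMKO, PD raised Itih4 from 22.5 and 50.2 to 514 and 637 CPM (3.99, 1.21e-07), Hp from 1167 and 1408 to 6994 and 8043 (2.55, 7.54e-06), Hpx by 1.70 (8.80e-08) and Lrg1 by 1.43 (0.0439), with 20.0% of all genes called. Itih4 thus rose in all 3 comparisons. With compound the hepatocyte list stood at 32448 to 52669 CPM in the knockout groups.

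Several of these calls in knockout cells rested on single libraries. With PD in Pard3HMKO, Lcn2 was lost without any 1 of the 4 (0.0951 to 0.213), Lrg1 without control replicate 1 (0.0505) or PD replicate 1 (0.0623), and Hpx without control replicate 2 (0.164) or PD replicate 1 (0.196). With U0126, Lcn2 was lost without control replicate 1 (0.135) or 2 (0.132) or U0126 replicate 2 (0.303). With PD in YapHMKO, Lrg1 was lost without any 1 of the 4 (0.0630 to 0.283) and under library totals (1.11, 0.120).

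The differences between knockout and control in their response to a compound were tested directly. For PD in Pard3HMKO minus Pard3WT, 3 members passed (0.808% of all genes): Fgl1 at 7.15 (adjusted p = 0.0118), Lrg1 at 3.70 (0.0127) and Itih4 at 1.97 (0.0484). For U0126 in the same genotypes, 4 passed (1.62% of all genes): Fgl1 at 6.16 (0.0133), Lrg1 at 3.24 (0.0202), Itih4 at 2.24 (0.0133) and Hpx at 1.27 (0.00337). For PD in YapHMKO minus YapWT, 5 passed (3.71% of all genes): Fgl1 at 5.91 (0.00942), Lrg1 at 3.76 (0.00322), Itih4 at 3.25 (0.000397), Hpx at 2.21 (8.58e-06) and Hp at 1.57 (0.0327). Fgl1 had the largest difference in each comparison. With PD it went from 192 and 142 CPM to 3.18 and 5.25 in Pard3WT. In Pard3HMKO it went from 9.48 and 32.4 to 123 and 27.2, and the groups overlapped. It went from 627 and 180 to 32.5 and 27.5 in YapWT, and from 52.1 and 111 to 430 and 297 in YapHMKO. The change of Fgl1 with PD was called in both controls and in neither knockout. Most of these differences depended on single libraries. For PD in the Pard3 line, Itih4 was lost without any 1 of the 8 libraries (0.0628 to 0.196), Lrg1 without Pard3WT PD replicate 1 (0.103), Pard3HMKO control replicate 1 (0.0593) or 2 (0.0527) or Pard3HMKO PD replicate 1 (0.0607), and Fgl1 without Pard3WT PD replicate 1 (0.109) or 2 (0.0974) or Pard3HMKO control replicate 1 (0.0611). For U0126, Hpx was kept without each library in turn. Fgl1 was lost without Pard3WT U0126 replicate 1 (0.112) or 2 (0.0750), Pard3HMKO control replicate 1 (0.0755) or Pard3HMKO U0126 replicate 2 (0.0593). Itih4 was lost without those libraries too (0.0570, 0.112, 0.0871 and 0.0629) and without Pard3WT control replicate 1 (0.0829). Lrg1 was lost without Pard3WT control replicate 1 (0.0611), Pard3WT U0126 replicate 1 (0.133), Pard3HMKO control replicate 1 (0.0815) or 2 (0.0675) or Pard3HMKO U0126 replicate 2 (0.0642). For PD in the Yap line, Lrg1, Itih4 and Hpx were kept without each library in turn. Hp was lost without any library but YapWT control replicate 2 (0.0541 to 0.156), and Fgl1 without YapWT PD replicate 1 (0.0536) or 2 (0.0695) or YapHMKO control replicate 1 (0.0715).

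Without the marker-bearing cells, left out as for the knockouts, 22 of the 63 culture calls were lost. Of these, 11 were of Lrg1, among them PD in Pard3WT (−3.15, adjusted p = 0.0629), PD in YapWT (−3.04, 0.0723), U0126 in Pard3WT (−3.30, 0.0590) and both knockouts without compound (−3.37, 0.103 and −3.21, 0.0612). Hpx was lost with PD (0.38, 0.436) and U0126 (0.26, 0.582) in Pard3HMKO and with PD in YapWT (−0.42, 0.420), and Lcn2 in Pard3HMKO without compound (0.61, 0.654) and with PD (−1.31, 0.132). Itih4 was lost with PD in Pard3WT (1.05, 0.103), Hp with PD in YapWT (0.55, 0.280) and Orm1 with U0126 in Pard3WT (5.51, 0.124). Lcn2 was lost between U0126 and TPPB (−0.74, 0.368). In the difference of the U0126 response between Pard3HMKO and Pard3WT, Hpx (1.43, 0.109) and Fgl1 (4.34, 0.154) were lost. Without the cells with over 0.1% of reads in such markers, a rule chosen after seeing the data, 18 of the 63 culture calls were lost and 1 turned. Itih4 was lost in Pard3HMKO without compound (−2.09, 0.119), and in Pard3WT with PD (1.06, 0.396) and with TPPB and PD (1.21, 0.345). It was also lost in the differences of the PD response in the Pard3 line (1.77, 0.615) and the Yap line (2.79, 0.141) and of the U0126 response (2.05, 0.494). The other lost calls were of Lrg1, Lcn2 and Hpx. That rule removed 28 of 41 YapHMKO control cells, and its markers include Cd14.

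Of the 37 other acute phase genes, 20 fell and 1 rose with TPPB in Pard3WT and 26 fell and 3 rose in YapWT; the heavy chain gene Itih1 changed by −3.56 and Itih2 by −2.24 in Pard3WT. In knockout cells without compound, 16 fell and 1 rose in Pard3HMKO and 21 fell and 2 rose in YapHMKO. With PD, 18 rose and 2 fell in Pard3HMKO and 23 rose and 1 fell in YapHMKO, where C3 rose by 2.84 and Itih2 by 2.1.

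**Figure D3:**
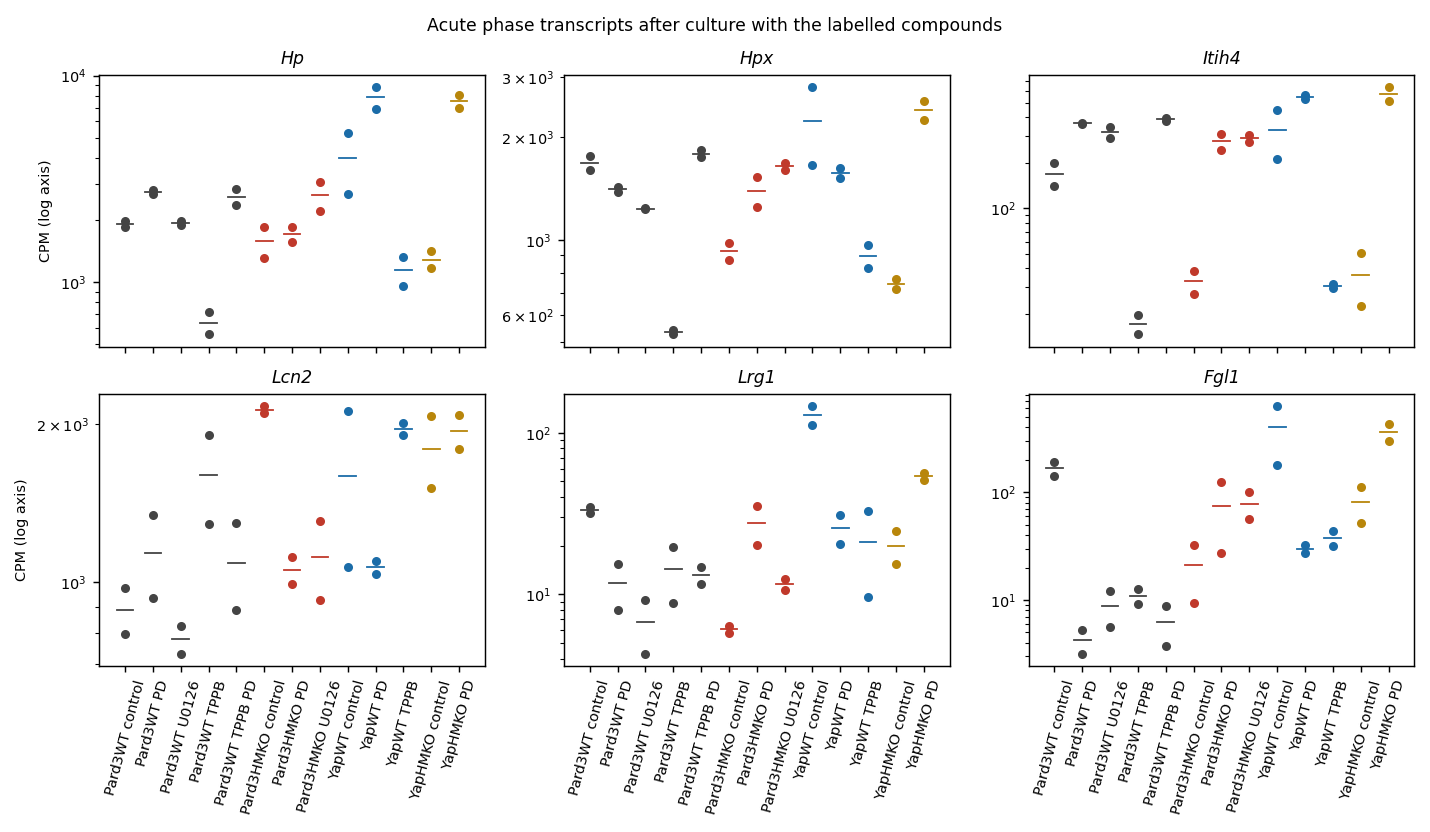
Levels of Hp, Hpx, Itih4, Lcn2, Lrg1 and Fgl1 (CPM, TMM scaled, log axis) in cells cultured for 2 days, by genotype and compound. Each point is 1 library and each bar the group mean. Itih4 is at 19.7 and 14.6 CPM in TPPB-treated Pard3WT and at 27.2 and 38.3 in untreated Pard3HMKO, and at 244 or more in every library given PD.

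After partial hepatectomy, 6 of the 10 members rose by day 2 in Pard3WT liver and all 10 in Pard3HMKO liver. The 10 members together took 1.07% to 2.81% of all reads at day 0, 17.3% and 18.8% in Pard3WT at day 2 and 24.9% and 26.7% in Pard3HMKO at day 2. Of this, Saa1 and Saa2 took 10.3% and 11.1% in Pard3WT and up to 17.7% in Pard3HMKO. On the authors' length-scaled values, which allow genes to be compared, Saa2 (11615), Saa1 (10391) and Orm1 (3157) had higher means than Alb (2817), the albumin gene, in Pard3WT at day 2, though the Orm1 and Alb libraries overlapped. They were followed by Hp (2474), Lcn2 (1338) and Hpx (1068), and then by Lrg1 (211), Orm2 (136), Itih4 (70.5) and Fgl1 (60.8). All 10 members had their highest TMM-scaled level of the 49 groups in Pard3HMKO at day 2, though for Lcn2 the genotypes overlapped there and its length-scaled level was lower in the knockout (912). The Pard3WT day 2 group rests on 1 library of 7 cells and 1 of 76.

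In Pard3WT, 6 members rose from day 0 to day 2, with 15.7% of all genes called. Lcn2 rose furthest, from 34.7 and 87.3 CPM to 13405 and 12943, a log2 fold change of 7.75 (SE 0.91, adjusted p = 4.95e-05). Orm1 had 2118 and 3079 against 17177 and 18695 CPM (2.79, SE 0.27, adjusted p = 4.50e-07), and Lrg1 441 and 406 against 2019 and 2071 (2.27, SE 0.27, adjusted p = 2.43e-06). Each had both day 2 libraries above both day 0 libraries by several times the spread within a day. Hp had 4515 and 5024 against 21303 and 25985 CPM (2.31, SE 0.49, adjusted p = 0.00492), Hpx 2861 and 2933 against 10538 and 12723 (2.01, SE 0.30, adjusted p = 0.000119), and Fgl1 732 and 930 against 1749 and 1916 (1.14, SE 0.26, adjusted p = 0.00410). Saa1 and Saa2 varied widely at day 0 and were not called: Saa1 had 2573 and 10136 CPM at day 0 and 47098 and 53085 at day 2 (2.98, SE 1.24, adjusted p = 0.139), and Saa2 898 and 4580 against 53833 and 57825 (4.35, SE 1.70, adjusted p = 0.114). Hp (0.0616) and Fgl1 (0.0765) were lost without day 0 Pard3WT replicate 1, and all 6 were kept without the library of 7 cells.

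In Pard3HMKO all 10 members rose by day 2, with 18.9% of all genes called. Saa1 had 745 and 4856 CPM at day 0 and 100506 and 114572 at day 2 (5.26, SE 1.38, adjusted p = 0.0174), and Saa2 166 and 1910 against 115954 and 133444 (6.91, SE 1.92, adjusted p = 0.0235). Lcn2 rose by 8.51 (16.4 and 59.3 to 12767 and 14846), Orm1 by 3.93 (1262 and 2232 to 25483 and 27936) and Orm2 by 4.43 (46.3 and 156 to 2353 and 1995). Both day 2 libraries of each of these genes lay above both day 0 libraries. Fgl1 rose by 3.24 (579 and 756 to 5967 and 6672), Hp by 3.12 (3438 and 5954 to 37079 and 44385), Hpx by 2.99 (1868 and 3360 to 18805 and 22813), Lrg1 by 2.89 (380 and 411 to 2608 and 3251) and Itih4 by 2.13 (816 and 1402 to 4962 and 4775). Saa2 and Orm2 were lost without any 1 of the 4 libraries (0.0513 to 0.165 and 0.0686 to 0.211), and Saa1 without day 0 replicate 1 (0.145) or day 2 replicate 2 (0.0548).

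At day 2 the knockout exceeded the control in 2 members, Itih4 and Fgl1, with 3.18% of all genes called. Fgl1 had 1749 and 1916 CPM in control and 5967 and 6672 in knockout (1.79, adjusted p = 0.000442), and Itih4 1530 and 1855 against 4962 and 4775 (1.52, 0.00572). Neither group pair overlapped, and Itih4 was lost without the 7-cell library, Pard3WT day 2 replicate 1 (1.39, 0.105). At day 0, 0 members and 0.00% of all genes were called between the genotypes (Orm1 alone fell under 0.05 before adjustment, and DESeq2 made 0 member calls). The day 0 to day 2 step itself differed between genotypes in 1 member, Fgl1, by 2.1 (SE 0.37, adjusted p = 0.00414; 2.36% of all genes called).

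From day 2 to day 7, 9 members fell in each genotype, with 21.6% of all genes called in Pard3WT and 20.3% in Pard3HMKO; Orm2 was called in neither. In Pard3WT, Lcn2 fell by 7.62 to between 48.5 and 93.2 CPM, Hp by 2.36 to between 4484 and 4676, and Orm1 by 3.03 to between 1980 and 2500. Each was then near its day 0 level. Compared with day 0, 0 members and 0.00% of all genes were called at day 7 in Pard3WT (0 members at an unadjusted p below 0.05, and 0 by DESeq2). The Pard3WT calls of Saa1 (−3.08, 0.0390), Saa2 (−4.48, 0.0257) and Itih4 (−0.74, 0.0383) depended on single libraries. Saa1 and Saa2 were lost without either day 2 library or without day 7 replicate 1, 2 or 3 (0.0569 to 0.114 and 0.0541 to 0.0750). Itih4 was lost without day 2 replicate 1 (0.0839) or 2 (0.228) or day 7 replicate 1 (0.0821) or 3 (0.0747).

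In Pard3HMKO some members were still high at day 7. Lcn2 had a lowest, median and highest level of 202, 271 and 662 CPM over 6 libraries, against 16.4 and 59.3 at day 0 (3.29, adjusted p = 0.0191). Hpx had 5781, 7159 and 10980 CPM (1.63, 0.00165), Orm1 3528, 4282 and 6120 (1.36, 0.00159) and Fgl1 1116, 1401 and 2158 (1.18, 0.00477), with 3.75% of all genes called. Each day 7 library of these genes lay above both day 0 libraries. All 4 calls were lost without day 0 Pard3HMKO replicate 1 (Lcn2 0.300, Hpx 0.0945, Orm1 0.114, Fgl1 0.270), and Fgl1 also without its replicate 2 (0.0507).

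Against Pard3WT at day 7, 6 members were higher in Pard3HMKO, with 5.52% of all genes called. Hpx had 2573 to 3252 CPM over 4 control libraries and 5781 to 10980 over 6 knockout libraries (1.47, adjusted p = 0.000192), and Orm1 1980 to 2500 against 3528 to 6120 (1.03, 0.000903). Lcn2 had 48.5 to 93.2 against 202 to 662 (2.46, 0.0100), Fgl1 640 to 989 against 1116 to 2158 (0.86, 0.00430), Lrg1 357 to 423 against 431 to 965 (0.71, 0.0149) and Orm2 77.5 to 186 against 400 to 3243 (3.30, 0.0344). None of these 6 ranges overlapped, and the share of all genes without overlap was not counted. Orm2 was lost without any 1 of the 4 control libraries (0.0861 to 0.104) or without Pard3HMKO replicate 3 (0.0517), and Lrg1 without Pard3WT replicate 4 (0.0591). Pard3HMKO replicates 3 and 4 held 12 and 9 cells; without both, the values were 1.18 for Hpx, 0.84 for Orm1, 1.87 for Lcn2, 0.61 for Fgl1, 0.41 for Lrg1 and 1.74 for Orm2, all called. Without the cells in which 50% or more of another cell type's marker genes had a read, none of the 6 was called, with 0.62 for Hpx (adjusted p = 0.204), 0.54 for Orm1 (0.287), 1.31 for Lcn2 (0.287), 0.58 for Fgl1 (0.265), −0.06 for Lrg1 (0.948) and 1.62 for Orm2 (0.323). That rule also ended the day 2 genotype calls of Fgl1 (1.70, 0.0659) and Itih4 (1.37, 0.115), the difference of the day 2 step in Fgl1 (1.87, 0.177), and in Pard3HMKO from day 0 to day 7 Hpx (0.76, 0.139) and Fgl1 (0.75, 0.160). It ended the day 0 to day 2 calls of Fgl1 in Pard3WT (1.17, 0.0566) and Saa1 in Pard3HMKO (5.30, 0.0614), and the day 2 to day 7 calls in Pard3WT of Saa1 (−3.06, 0.281), Saa2 (−4.40, 0.0964) and Itih4 (−0.88, 0.0720). The marker rule removed 110 of 133 Pard3HMKO and 55 of 206 Pard3WT cells at day 7, and 113 of 119 Pard3HMKO cells at day 0. The day 2 to day 7 step did not differ in any member between genotypes (0 called, 4.70% of all genes). Before adjustment 3 members fell under 0.05, and DESeq2 called 1, Lcn2.

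Neutrophil markers stayed at or below 102 CPM in every surgery library, against 12767 to 14846 CPM of Lcn2 in Pard3HMKO at day 2. Cd14 is in the macrophage list and also among the other acute phase genes. The macrophage list stood at 43.0 to 56.5 CPM at day 0, at 133 and 189 in Pard3WT and 351 and 503 in Pard3HMKO at day 2, where Cd14 alone had a mean of 586 CPM and C1qa 0.904 when scaled over all RNA libraries. The part of these cells in the results was not tested. Of the 37 other acute phase genes, 18 rose and 5 fell from day 0 to day 2 in Pard3WT (Apcs 3.78, the mannose-binding lectin Mbl2 −4.23) and 22 rose and 4 fell in Pard3HMKO (Apcs 5.42, Serpina3n 4.41). Of 11 genes known to fall in the acute phase, 5 fell and 3 rose in Pard3WT (Serpina6 −7.59, Ttr −1.56). Of 32 receptor and signalling genes, 9 rose and 5 fell in each genotype (Ghr, the growth hormone receptor, −2.80 and −2.34), Hmox1 rose by 2.25 and 3.80, and of 4 cytokine genes with enough reads none was called.

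**Figure D4:**
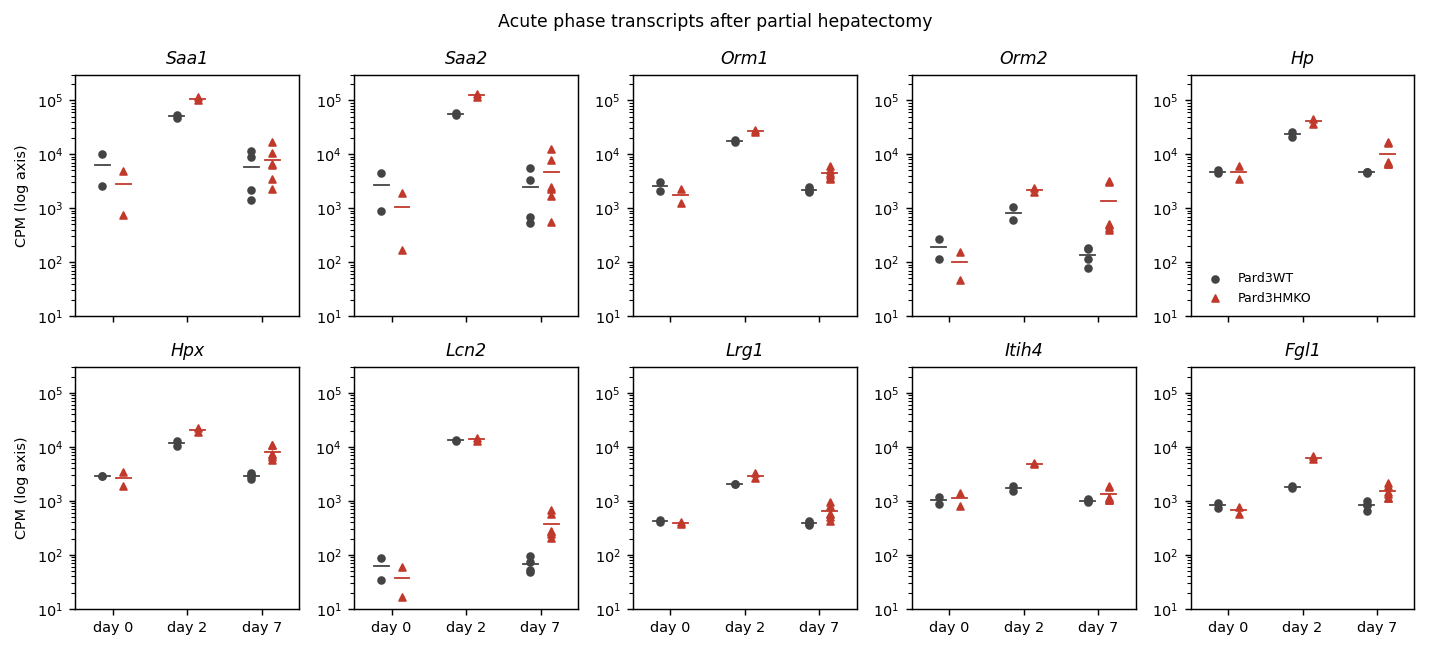
Levels of the 10 members (CPM, TMM scaled, log axis) at day 0, 2 and 7 of partial hepatectomy in Pard3WT and Pard3HMKO liver. Each point is 1 library and each bar the group mean. Day 2 stands above day 0 in every panel, and at day 7 Lcn2 is at 202 to 662 CPM in Pard3HMKO and at 48.5 to 93.2 in Pard3WT.

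Open chromatin was read from the authors' peak lists, which held 24270 to 45898 peaks per library. A peak within 10 kb of the gene was present in 181 of 220 pairs of member and library. Hp, Hpx, Lcn2, Lrg1 and Itih4 had one in all 22 libraries, Orm2 in 19, Saa1 in 18, Orm1 in 15, Fgl1 in 12 and Saa2 in 7. Between 62.1% and 73.6% of 21900 protein-coding genes had one per library. Fgl1 had its peaks in 12 of 12 libraries from E17.5 liver and 0 of 10 from culture, although it was expressed in some cultured groups.

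Around the orosomucoid pair, 4 regions had peaks in E17.5 control livers and in no knockout liver. With Pard3WT and YapWT counted together as 6 control libraries and Pard3HMKO and YapHMKO as 6 knockout libraries, the region chr4:63346667-63347198, within Orm1, had a peak in 6 control and 0 knockout libraries. So did chr4:63357018-63357385, between Orm1 and Orm2, while chr4:63338580-63339178, upstream of Orm1, had one in 5 and 0, and chr4:63359804-63360334, upstream of Orm2, in 4 and 0. Other regions there were shared: chr4:63344246-63344712, over the Orm1 start, had a peak in 2 and 2 libraries, and chr4:63368546-63369032, near Orm2, in 6 and 4. In the RNA libraries of that age Orm1 had 0 and 0 reads in Pard3WT, 3 and 5 in Pard3HMKO, 4 and 25 in YapWT and 4 and 2 in YapHMKO. Within Lrg1, chr17:56119365-56120640 had a peak in 5 and 0 libraries. At Fgl1, chr8:41217697-41218428, over its start, had one in all 6 and all 6, and chr8:41216011-41216446, inside the gene, in 3 and 0. The build named for these lists was mm10, and regions were described after their values were seen, with no test. How many regions over the whole genome had peaks in control libraries alone was not counted, so these splits are not shown to be particular to the members. The pooled knockouts include libraries labelled YapHMKO, and Yap1 RNA was not lower under that label at E17.5, as given above.

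Promoter peaks were fewer. Over the 250 bases before the start, Hpx had a peak in 22 libraries and Lcn2 in 20, while Lrg1, Orm2, Saa1 and Saa2 had none; 30.4% to 39.1% of 32851 promoters had one per library. Itih4, whose promoter holds the STAT letters shown above, had one in 14. These were 3 of 3 Pard3WT, 2 of 3 Pard3HMKO, 3 of 3 YapWT and 1 of 3 YapHMKO libraries at E17.5. In culture they included 2 of 2 with PD in each genotype tested, 1 of 2 in the Pard3WT control, 0 of 2 in the Pard3HMKO control and 0 of 2 with TPPB. Peaks were called per library, so a missing peak may lie just under the authors' threshold.

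**Figure D5:**
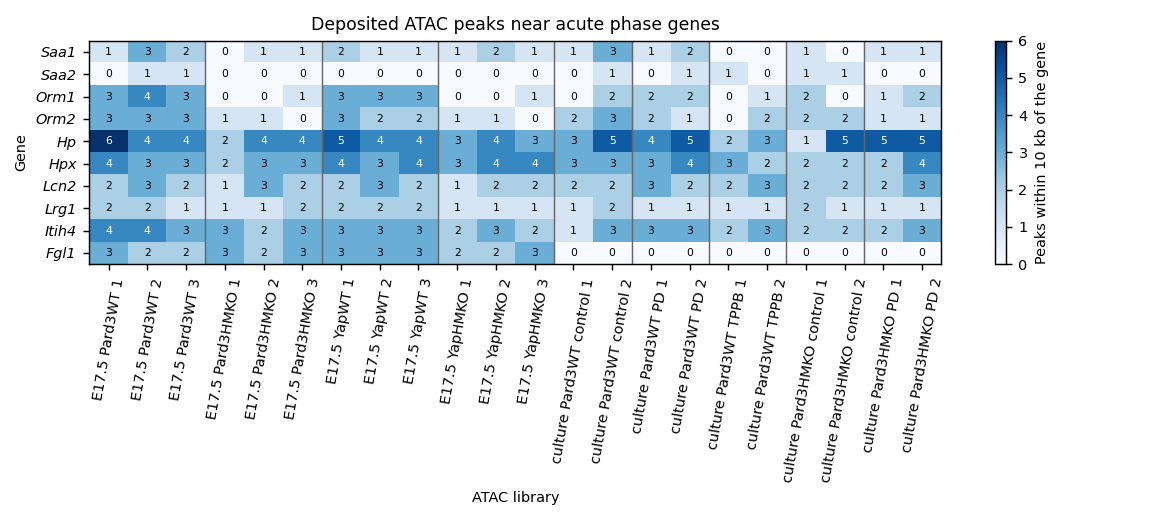
Number of authors' peaks within 10 kb of each member (shade and printed number). Rows are members and columns single ATAC libraries of E17.5 liver and cultured cells, with lines between groups. Hp, Hpx, Lcn2, Lrg1 and Itih4 have a peak in all 22 libraries, and Fgl1 has peaks in every E17.5 liver library and none in culture.

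Over the 49 groups, each member's closest companions were named by Pearson's r of log2(mean CPM + 1) over 10050 genes, as a description across groups that share libraries' depth and stage. Saa1 was closest to Orm1 (0.97), Saa2 (0.96) and Slc41a2 (0.95), and Orm2 to Nnmt (0.99), Mug2 (0.97) and Orm3 (0.97). Hp was closest to Cp (0.95), which encodes ceruloplasmin, Hpx to Igsf5 (0.93), and Itih4 to C3 (0.97), Kynu (0.96) and Serpina1c (0.96). Lrg1 was closest to Il13ra1 (0.94), Cldn3 (0.94) and Fam25c (0.93), Fgl1 to Iigp1 (0.93) and Il13ra1 (0.92), and Lcn2 to Cpne8, Slc48a1 and Bcl3 (0.91 each). The authors' length-scaled levels ordered the members differently by stage. At E19.5 in B6C3F1 liver they ran Hp (366), Hpx (192), Itih4 (45.1), Fgl1 (19.6), Lrg1 (7.86) and Lcn2 (0.807). In P0 Pard3WT liver they ran Hp (769), Hpx (250), Fgl1 (56.7), Itih4 (45.3), Lrg1 (16.8) and Lcn2 (11.3), and in Pard3WT liver at day 0 of hepatectomy Saa1 (1333), Saa2 (574), Hp (546), Orm1 (485) and Hpx (307).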

How the data were processed

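Single cells of mouse liver were profiled by Smart-seq3xpress and liver chromatin by ATAC-seq. The values of the RNA table are the authors' deposited read counts per gene and cell, whole numbers and not molecule (UMI) counts, so PCR copies are not independent molecules. Per the submitters' processing notes, RNA reads were handled with HISAT2 2.1.0, Trimmomatic 0.39 and FastQC 0.11.9 on GRCm38/mm10. For ATAC-seq on mm10 the notes list MACS 1.4.2, HOMER, Bowtie2 2.2.5, SAMtools 1.3.1 and Trimmomatic 0.38. The sources used here do not give the tool that counted reads. The peak lists hold the authors' score per peak, used only to rank or filter peaks within a list.

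Counts were summed over the 4264 cells of each library (median 622917 reads a cell), and 126 spike-in reads were left out; 0 pairs of cell columns were identical. edgeR 4.0.16 (quasi-likelihood test, TMM, filterByExpr) was fitted to each series, on 15662 genes for wild-type age, 18572 for the knockouts, 16715 for culture, 14843 for culture against liver and 15391 for hepatectomy. Genes were called at a Benjamini-Hochberg adjusted p below 0.05 over all genes of a comparison. SEs are the log2 fold change over the square root of F, and counting intervals and floors of 3 reads cover counting error only. DESeq2 1.42.0 was an alternative. The code was tested on simulated counts. Groups came from the labels. The members, gene lists and tests were chosen with earlier results of these data known. All 10 members are named in every comparison where they were called, and list genes by a fixed rule of their change and significance. A second deposited table holds other values, divided by gene length and scaled per cell by the authors, and was used only to order genes. Alternatives covered scaling, filters, the replicate block, marker-bearing cells and each library left out in turn. Promoter sequences are from RefSeq, GRCm38.p6.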

Additional observations from a re-analysis of the deposited data

Results flagged for a closer look

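The values below were flagged because a contrast differed between 2 genotypes or Cre lines by the test of the difference itself (edgeR's quasi-likelihood test, adjusted over all genes). The Pard3 knockout's effect at E17.5 was larger with Alfp-Cre than with Foxa3-Cre for Lrg1, by −3.22. The step from E19.5 to P0 differed in the Pard3 knockout by −5.28 for Hp, −1.67 for Hpx, −4.89 for Lrg1, −1.09 for Itih4 and −2.58 for Fgl1. In culture, the response to PD differed between Pard3HMKO and Pard3WT by 3.70 for Lrg1, 1.97 for Itih4 and 7.15 for Fgl1. The response to U0126 differed between them by 1.27 for Hpx, 3.24 for Lrg1, 2.24 for Itih4 and 6.16 for Fgl1. The response to PD differed between YapHMKO and YapWT by 1.57 for Hp, 2.21 for Hpx, 3.76 for Lrg1, 3.25 for Itih4 and 5.91 for Fgl1. The step from day 0 to day 2 of hepatectomy differed in the Pard3 knockout by 2.1 for Fgl1. In 20 checks of groups of 4 or 6 libraries, no single library was flagged as far from all others of its group. That check cannot flag 2 libraries that lie together: in Pard3HMKO at day 7, replicates 3 and 4 had 3243 and 3121 CPM of Orm2 against 400 to 517 in the other 4, and 16457 and 16997 CPM of Hp against 6499 to 7084.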

How the results depend on the processing

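Counts of called members were 6 for wild-type age, 62 over the knockout comparisons, 63 in culture, 13 for culture against liver and 47 after hepatectomy. With each library left out in turn they ranged over 6 to 7, 56 to 63, 49 to 67, 12 to 14 and 40 to 50. Without a filter on low counts the culture count was 110 and the hepatectomy count 72. Without the 2011 cells (47.2%) in which 50% or more of the marker genes of another cell type had a read, a rule that deeper cells meet more often, 35 of 60 calls were left over the knockouts, 41 of 63 in culture and 31 of 47 after hepatectomy. The rule removed 50 of 55 P0 and 57 of 59 P14 Pard3HMKO cells. Under that rule 3 values turned: Orm1 in the P0 knockout to 2.47 (adjusted p = 0.486), Saa1 from P0 to P14 in the knockout to 0.00, and Lrg1 at day 7 to −0.06. The cause was not tested. A rule on the share of reads, chosen after seeing the data and removing 443 cells (10.4%), turned 1 value, Lcn2 for U0126 against TPPB, to 0.05, and kept 60 of 62 knockout calls, 44 of 63 in culture and 47 of 47 after hepatectomy. DESeq2 kept 60 of 62 knockout calls and every call of the other series. Fits to only the libraries compared kept 60 of 62, 56 of 63 and 42 of 47 for knockouts, culture and hepatectomy, and scaling each cell to one total kept 61, 55 and 46, and 12 of 13 for culture against liver. The other additions made after seeing the data were library totals as the scale and hepatectomy without 2 small libraries. Pairs of member and library with a peak within 10 kb numbered 181, with 142 within 2 kb, 138 at a score of 100 or more, and 171 to 175 without a replicate. Saa and Orm genes before P14, and Lrg1 before E16.5, lay near the limit of a few reads.

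Same-numbered libraries share only a number in the labels; over 86 pairs the correlation of their deviations over 11231 genes lay between −0.12 and 0.19 (median −0.01). With the replicate number as a block, 6 of 6, 62 of 62, 59 of 63, 13 of 13 and 45 of 47 calls were kept. The calls not kept had block values of −1.52 (adjusted p = 0.0531) for Lrg1 with PD in Pard3WT, 1.44 (0.0515) for Lrg1 with PD in YapHMKO, −2.99 (0.0607) for Fgl1 in the Pard3HMKO culture control, 1.97 (0.0613) for Itih4 in the PD difference, 3.17 (0.0635) for Lcn2 from day 0 to day 7 in the knockout and 3.14 (0.0734) for Orm2 at day 7.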

Other observations

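Control groups that carried the same Foxa3-Cre genotype label were not at the same level for several members. In culture without compound, Saa1 had no read in both Pard3WT libraries and 27.3 and 19.0 CPM in the YapWT libraries. Hp had 1851 and 1972 CPM in Pard3WT and 5279 and 2679 in YapWT, and Lrg1 34.9 and 32.0 against 112 and 146. The neutrophil marker list stood at 448 and 2305 CPM in the cultured YapWT control. At E17.5, Hp had 971 and 718 CPM in Pard3WT, 1406 and 1612 in YapWT and 1370 and 1185 in Pard3WT YapWT. These groups were not compared by a test, and each knockout above was compared with its own control.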
